A study of Mus musculus with 6 samples.

Results

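The 9 genes described here encode components and regulators of the complement system and were read out by RNA sequencing of ID8, a line derived from mouse ovarian surface epithelium and used as a model of ovarian cancer. They are C3, the proteases C1s1 and C1ra, C4b and factor B (Cfb), and the regulators Serping1, Cd55, Cd59a and clusterin (Clu). They were chosen by gene symbol, with the differences between the groups in view, from 53465 genes in the count table. All 9 are listed in the table, 8 were detected in 1 or more libraries and 5 passed the filter on low counts. The libraries fall into 3 labelled KO, from ID8 cells stably carrying sgNat10, a guide against Nat10, and 3 labelled WT, from ID8 cells stably carrying the control guide sgNC; the link between these labels and the guides was taken from the series' description. Nat10 encodes the enzyme that places N4-acetylcytidine on RNA, and the study asked which transcripts change when it is depleted. The sources used here do not say whether each line is a clone or a pool, or whether the replicates numbered 4 to 6 are separate cultures. The p-values therefore reflect the spread among these libraries alone, which may be technical. With 1 line per guide, the guide and the line it was put into cannot be told apart.

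Complement is a set of plasma and membrane proteins that marks cells and microbes for removal. In the classical pathway C1q binds a target, the proteases C1r and C1s become active and cleave C4 and C2, and the resulting enzyme cleaves C3. Factor B serves the alternative pathway, which amplifies the cleavage of C3, and the terminal components build a pore in the target membrane. Host cells are guarded by inhibitors: the protein encoded by Serping1 blocks C1r and C1s, CD55 takes C3 convertases apart, CD59 blocks the pore, and clusterin binds terminal complexes in solution. The liver makes most complement protein in plasma, and epithelial cells also transcribe several of these genes.

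Total counts were 2541273, 2234305 and 3126208 in KO-labelled replicates 4, 5 and 6, against 1687466, 2148715 and 1811225 in WT replicates 4, 5 and 6. Nat10 itself had 315, 133 and 445 counts in KO-labelled libraries and 168, 128 and 292 counts in WT libraries. Its log2 fold change was -0.07 ± 0.48 (SE; edgeR adjusted p = 0.99996), so the mRNA of the targeted gene was not measurably lower and directions below are those of the labels. Counts were uneven between libraries of a group: 30.3% of the 8200 tested genes had 0 counts in 1 library and at least 20 in another of the same group. This was found for 1857 genes among the KO-labelled libraries and for 1303 among the WT libraries. The mesothelial and surface epithelial markers summed to 4860 to 5662 CPM (a gene's counts relative to the library total, after scaling by edgeR's TMM factors) in KO-labelled libraries and 6342 to 6850.5 CPM in WT libraries, with Epcam and Pax8 at 0. These markers went both ways: edgeR called Msln higher, at 1636 CPM in KO-labelled and 789 CPM in WT libraries, and called Krt18 and Krt19 lower (log2 fold changes -1.74 and -0.92). None of 8 lymphocyte markers had a count in any library. The sums of 14 macrophage and myeloid markers ran from 0 to 11.8 CPM in KO-labelled and from 0 to 43.5 CPM in WT libraries. Most of these counts were on Cd14 and Cd68, and Tyrobp and Cx3cr1 were at 0. Cd14 had 0, 14 and 25 counts in KO-labelled and 18, 58 and 0 in WT libraries. Cd68 had none in KO-labelled and 10, 29 and 0 in WT libraries. The sums of 5 hepatocyte markers ran from 1.55 to 23.98 CPM in KO-labelled and from 1.499 to 58.98 CPM in WT libraries. In KO-labelled replicate 6, 10 of the macrophage markers and 5 of 7 endothelial markers had at least 1 count, mostly 1 to 3 counts each. The 7 fibroblast markers summed to 967 to 1325 CPM in KO-labelled libraries and 752 to 779.9 CPM in WT libraries. Nearly all of that was Dcn, Thy1 was at 0, and Col1a1 had 1, 38 and 6 counts in KO-labelled and 120, 171 and 74 counts in WT libraries. The fibroblast and mesothelial sums thus separated the groups, while markers within each list went both ways. Groups were also apart for 14.9% of all single tested genes. The part of these markers in the results below was not tested.

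C3 and C1s1 carried the 2 largest differences among the 5 tested genes of the 9, in opposite directions, and their promoters are printed here so that the regulatory letters at each gene can be compared. The sequences run 5′ to 3′ on the strand of the gene, from 250 bases before to 50 bases after its start, and come from RefSeq on GRCm38.p6. The C3 promoter lies at chr17:57228087-57228386 on the minus strand, and the promoter shown for C1s1 at chr6:124542310-124542609 on the minus strand. Capitals mark matches to the motifs described next.
C3: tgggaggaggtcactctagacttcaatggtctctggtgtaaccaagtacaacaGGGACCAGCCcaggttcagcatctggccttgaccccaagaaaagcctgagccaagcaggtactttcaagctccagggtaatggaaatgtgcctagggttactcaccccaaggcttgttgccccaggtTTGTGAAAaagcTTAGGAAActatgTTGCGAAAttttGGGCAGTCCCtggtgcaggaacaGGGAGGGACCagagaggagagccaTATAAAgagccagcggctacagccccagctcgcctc
C1s1: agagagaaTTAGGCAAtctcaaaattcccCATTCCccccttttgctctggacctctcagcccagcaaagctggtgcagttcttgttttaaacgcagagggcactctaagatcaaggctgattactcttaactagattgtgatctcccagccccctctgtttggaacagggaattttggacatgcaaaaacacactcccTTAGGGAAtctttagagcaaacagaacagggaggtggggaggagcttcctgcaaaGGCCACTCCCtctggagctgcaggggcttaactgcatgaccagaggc

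Both strands were searched for 6 motifs of factors known to act on complement or acute phase genes, or on core promoters: NF-kB (GGGA and CC with any 4 bases between them), C/EBP (TTNNGNAA), STAT (TTCNNNGAA), IRF (GAAA and GAAA with any 2 bases between them), the TATA box (TATAAA) and TEAD (GGAATG), where N is any base. The C3 window held C/EBP letters at 3 places, from position -70 to position -38 counted from the start, the last of which reads as a match on both strands. At least 3 such places were found in 3.6% of 32851 mouse promoters of this length, and at least 1 in 40.7%. The same window held 3 matches to NF-kB, which 20.7% of promoters hold, and the letters TATAAA at positions 15 to 20, after the listed start, which 13.6% hold somewhere in the window. No marked matches overlap in either window shown, apart from that C/EBP match read on both strands. The C1s1 window held 2 C/EBP matches, 1 NF-kB match and 1 TEAD match, the last found in 14.7% of promoters. A second start listed for C1s1, downstream of the first, leaves 1 C/EBP and 1 NF-kB match in its window. The STAT and IRF letters, held by 8.3% and 3.44% of promoters, were in neither window. Promoters were listed for 5 of the 9 genes. The C1ra window held 1 STAT match, 3 C/EBP matches and 3 TEAD matches, some of which overlap each other, that of Cd55 1 NF-kB match and that of Cd59a 1 IRF match. A match describes the letters and does not show that a factor binds.

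C3, the central component that all pathways cleave, was lower in the KO-labelled libraries. It had 262, 336 and 145 CPM in KO-labelled replicates 4, 5 and 6, against 680.4, 801 and 635 CPM in WT replicates 4, 5 and 6. Every KO-labelled library lay below every WT library, and KO-labelled replicate 6 was the lowest of all. The means were 248 ± 96.3 CPM in KO-labelled and 706 ± 86.1 CPM in WT libraries (SD, n = 3 per group). The fitted log2 fold change was -1.51 ± 0.28 (SE; 95% interval -2.11 to -0.91), or 2.85-fold lower. C3 (ENSMUSG00000024164) spans chromosome 17 from 57203970 to 57228136 on mm10, no exon of another gene overlaps it, and none of its 50-base stretches is shared with the transcripts of another gene. In bulk RNA, fewer cells that express a gene and less RNA per cell cannot be told apart.

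C1s1, which encodes the protease of the C1 complex that cleaves C4 and C2, was higher in the KO-labelled libraries. It had 521, 379 and 325 CPM in KO-labelled replicates 4, 5 and 6, against 135, 98.9 and 170.0 CPM in WT replicates 4, 5 and 6. The groups did not overlap, and the lowest KO-labelled library stood well above the highest WT library. The means were 408 ± 101 CPM in KO-labelled and 135 ± 35.5 CPM in WT libraries (SD, n = 3 per group), with a fitted log2 fold change of 1.60 ± 0.30 (SE; 95% interval 0.96 to 2.24), or 3.03-fold higher.

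C1s1 (ENSMUSG00000038521) spans chromosome 6 from 124530345 to 124542359 and has a neighbouring copy, C1s2. The copy shares 21.9% of the 50-base stretches of the C1s1 transcripts, and 35.1% are shared with any other gene on either strand. Part of the reads therefore cannot be assigned with certainty. C1s2 had 1, 0 and 0 counts in KO-labelled libraries and 9, 1 and 34 counts in WT libraries. Its summed counts of 1 in KO-labelled and 44 in WT libraries were far below those of C1s1, at 3266 and 714. An antisense gene, Gm16567, overlaps 18.4% of the C1s1 exons and had no count in any library.

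C1ra, the protease that activates C1s in the C1 complex, lies 6.9 kb from C1s1, at 124512405 to 124523443 on chromosome 6, and had far fewer counts. Its counts were 41, 32 and 6 in KO-labelled libraries and 17, 6 and 29 in WT libraries. At 10.5 ± 7.58 CPM in KO-labelled and 10.03 ± 6.89 CPM in WT libraries (SD, n = 3 per group) the groups overlapped fully. The 95% interval of its log2 fold change ran from -4.52 to 4.66, so large changes either way remain possible at this depth. The related gene C1rb, which had no count, shares 48.0% of the 50-base stretches of C1ra. Another gene of this cluster, C1rl, had 63, 0 and 0 counts in KO-labelled and 37, 19 and 33 in WT libraries. The summed counts of C1s1, C1ra and C1rl were 3266, 79 and 63 in KO-labelled libraries, against 714, 52 and 89 in WT libraries, so C1s1 was the most abundant of these neighbours in both groups.

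The ratio of C3 to C1s1 counts within a library does not depend on how libraries are scaled. It was 0.503, 0.888 and 0.447 in KO-labelled replicates 4, 5 and 6, against 5.04, 8.10 and 3.73 in WT replicates 4, 5 and 6. C1s1 therefore had more counts than C3 in each KO-labelled library and fewer in each WT library. Of the counts on the 9 genes, C3 took 13.9%, 19.7% and 9.3% in KO-labelled libraries against 42.0%, 48.0% and 39.7% in WT libraries. C1s1 took 27.7%, 22.2% and 20.8% in KO-labelled libraries against 8.33%, 5.93% and 10.6% in WT libraries. The 9 genes together held 0.161% to 0.1896% of all counts in KO-labelled and 0.153% to 0.158% in WT libraries.

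**Figure D1:**
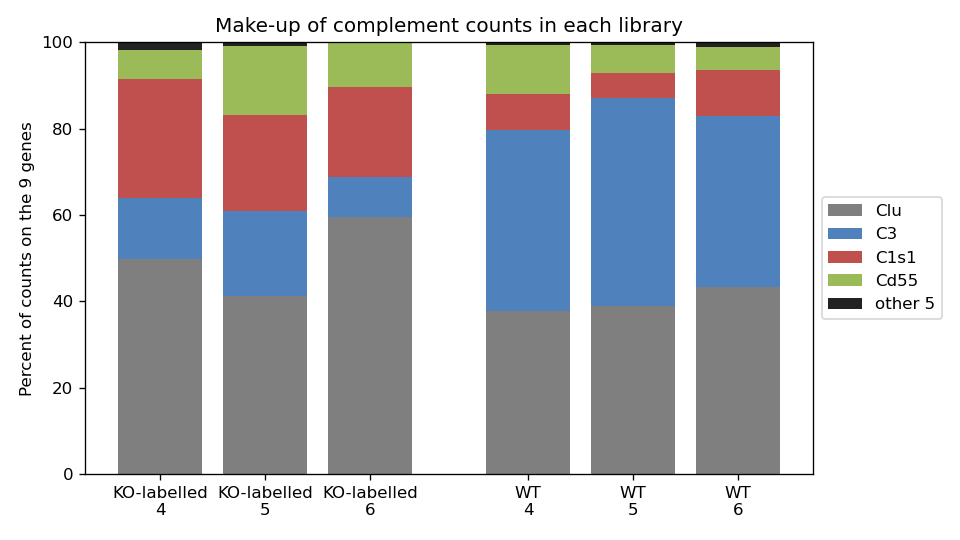
Percent of the counts on the 9 complement genes taken by Clu, C3, C1s1, Cd55 and the other 5 genes (y axis) in each KO-labelled and WT library (x axis). C3 takes 9.3% to 19.7% of these counts in KO-labelled libraries and 39.7% to 48.0% in WT libraries, and C1s1 takes 20.8% to 27.7% and 5.93% to 10.6%.

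Clusterin, a secreted chaperone that keeps terminal complement complexes from inserting into membranes, had the highest level per kilobase of the 9 genes in both groups. Clu had 939, 703 and 930.4 CPM in KO-labelled replicates 4, 5 and 6, against 612, 651 and 694 CPM in WT replicates 4, 5 and 6. The groups did not overlap, but KO-labelled replicate 5 and WT replicate 6 differed by little. The log2 fold change was 0.39 ± 0.19 (SE; 95% interval -0.02 to 0.81). Clu (ENSMUSG00000022037) spans chromosome 14 from 65968483 to 65981547 and shares no 50-base stretch with another gene.

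Cd55, whose protein dissociates C3 convertases at the cell surface, was the one membrane regulator among the 9 genes with ample counts. It had 124, 272 and 158 CPM in KO-labelled replicates 4, 5 and 6, against 183, 108 and 84.4 CPM in WT replicates 4, 5 and 6. The highest value was KO-labelled replicate 5, and the groups overlapped, with KO-labelled replicate 4 below WT replicate 4. Cd55 spans chromosome 1 from 130439027 to 130462744 and shares 9.12% of its 50-base stretches with other genes, mostly Cd55b, which had no count. The log2 fold change was 0.56 ± 0.40 (SE; 95% interval -0.30 to 1.42). It was 0.18 without KO-labelled replicate 5, 0.94 without WT replicate 4 and 0.34 without WT replicate 6. Cd59a, the inhibitor of the membrane pore, on chromosome 2 from 104095801 to 104115354, had 47, 0 and 3 counts in KO-labelled and 0, 13 and 0 counts in WT libraries. Nearly all of its counts sat in 1 library of each group, and it did not pass the filter on low counts.

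The 3 remaining genes were at or near 0. Serping1, the C1 inhibitor, had 0, 1 and 1 counts in KO-labelled libraries and none in WT libraries, and C4b, the component cleaved by C1s, had 1 count in KO-labelled replicate 6 and none elsewhere. Factor B had no count. Serping1 spans chromosome 2 from 84765387 to 84775444, C4b chromosome 17 from 34728380 to 34743882 and Cfb chromosome 17 from 34856374 to 34862518. A floor of 3 counts over a group corresponds to 0.369 CPM in KO-labelled and 0.558 CPM in WT libraries and covers counting error only, because amplified reads are not independent molecules. Serping1 shares no 50-base stretch with another gene. For C4b and Cfb a low count says less about the transcript: C4b shares 34.6% of its 50-base stretches with C4a, and 79.5% of the Cfb exons are overlapped by Gm20547, an annotated gene that overlaps both Cfb and C2. C4a, C2 and Gm20547 also had no count, and the sources used here do not state how reads shared between genes were counted.

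**Figure D2:**
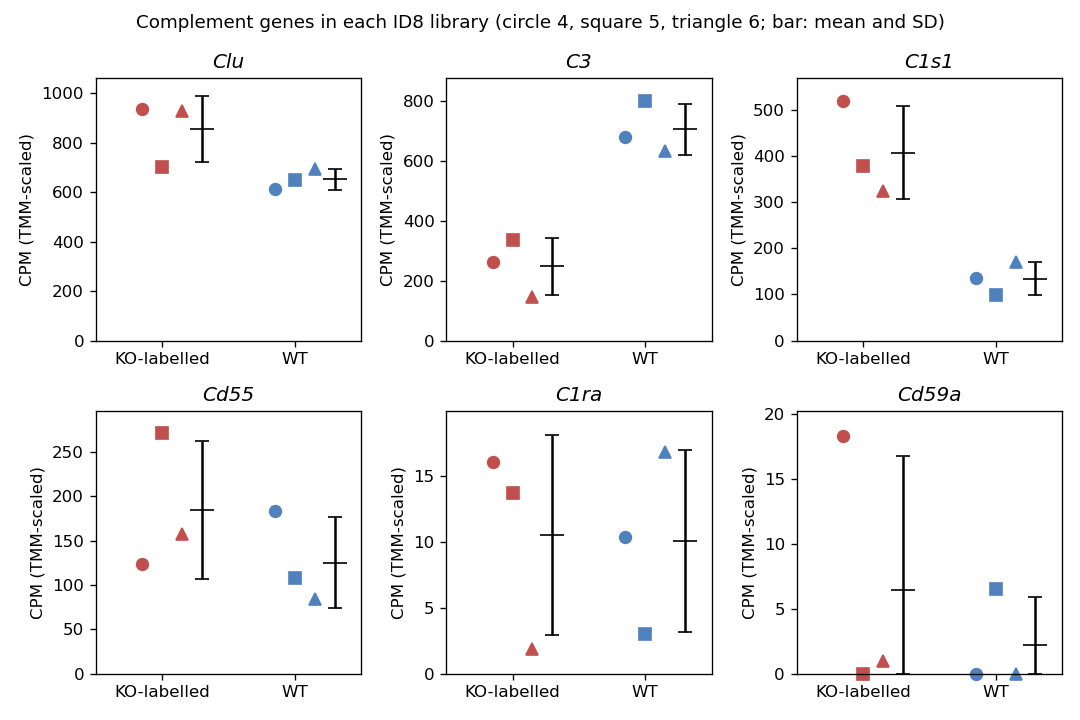
CPM (y axis, scaled by TMM) of 6 of the 9 genes in each KO-labelled and WT library (x axis), with replicates 4, 5 and 6 as circle, square and triangle and the mean ± SD as a bar cut off at 0. The groups are apart for C3 (262, 336 and 145 against 680.4, 801 and 635 CPM), C1s1 and Clu, and overlap for Cd55, C1ra and Cd59a.

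In the edgeR quasi-likelihood test over all 8200 genes, with Benjamini-Hochberg adjustment at 0.05, C3 was called lower and C1s1 higher, and C1ra, Cd55 and Clu were not called. The share of all tested genes called was 0.402%, with 0.183% higher and 0.22% lower, that is 15 higher and 18 lower. With library totals in place of TMM factors the split was 27 higher and 16 lower, and the median log2 fold change of all tested genes was 0.09 in place of -0.02. In limma-voom that median was -0.13. Groups did not overlap for C3, C1s1 and Clu, as for 14.9% of all tested genes. The genes were chosen with this contrast in view, so these calls are a description and no test of the group. With 1 library left out, C3 was called in 2 of 6 fits: its call was lost without KO-labelled replicate 4 or 6 and without WT replicate 5 or 6, with log2 fold changes from -1.79 to -1.24. C1s1 was called in 0 of 6 such fits, whichever library was left out, with log2 fold changes from 1.39 to 1.80.

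Per kilobase of annotated exon, which allows genes to be compared, the order of the 4 most abundant of the 9 genes differed between the groups. In KO-labelled libraries the level was 249 ± 39.0 CPM per kilobase for Clu, 130.4 ± 32.4 for C1s1, 48.2 ± 18.7 for C3 and 38.0 ± 16.0 for Cd55 (SD, n = 3). In WT libraries it was 189.8 ± 11.9 CPM per kilobase for Clu, 137 ± 16.7 for C3, 43.0 ± 11.4 for C1s1 and 25.8 ± 10.6 for Cd55 (SD, n = 3). Among these 4 genes, neighbours in the order whose libraries overlapped in level were C3 and Cd55 in the KO-labelled group and C1s1 and Cd55 in the WT group. C1ra was at 3.53 ± 2.54 CPM per kilobase in KO-labelled and 3.37 ± 2.31 CPM per kilobase in WT libraries (SD, n = 3 per group). Cd59a was at 10.1, 0 and 0.514 CPM per kilobase in KO-labelled replicates 4, 5 and 6, against 0, 3.59 and 0 CPM per kilobase in WT replicates 4, 5 and 6, and overlapped C1ra in both groups. Clu stood above 98.7% of all tested genes in KO-labelled and 97.9% in WT libraries, C1s1 above 96.8% and 87.5%, and C3 above 89.5% and 96.7%.

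Of 56 other complement genes, by role, 39 had no count in any library and 7 were tested. None was called by edgeR. An unadjusted p under 0.05 was found for 2 of them, Masp1 and Calr, as for 6.49% of all tested genes. DESeq2 called 2 (Masp1 higher, Calr lower) and limma-voom 1 (Calr). The share called among all genes was 0.402% in edgeR, 2.88% in DESeq2 and 0.524% in limma-voom. The median log2 fold change of the 7 was -0.06. Among the genes that recognise targets or start the cascade, C1qa had no count, C1qb had 2 and C1qc 3 counts, all in KO-labelled replicate 6. Mbl1, Mbl2, the ficolins and C2 had none. The terminal components had no count for 4 of 7 genes, and C6 had 118 counts in KO-labelled replicate 6 and 0 in the other 5 libraries. Both genes listed for the alternative pathway besides factor B, Cfd and Cfp, had no count.

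Masp1, a protease of the lectin pathway, had 52, 49 and 57 counts in KO-labelled replicates 4, 5 and 6 and 0 counts in each WT library. Only the KO-labelled libraries, where it is high, carried it past the filter on low counts. Its ratio, interval and calls are therefore a description and no test of the group. Set against a floor of 3 counts over the WT group, its ratio was at least 34.9-fold, a bound that covers counting error only. This bound does not cover the uneven counts seen between libraries of a group. The 95% interval of the fitted log2 fold change ran from 1.61 to 15.3, so a far smaller difference remains possible. Masp1 was not called by edgeR (adjusted p = 0.547) or limma-voom (adjusted p = 0.342). DESeq2 called it (adjusted p = 0.0298), and over the alternatives the adjusted p reached 0.940. Masp1 spans chromosome 16 from 23449417 to 23520815, and its level of 1.998 ± 0.177 CPM per kilobase in KO-labelled libraries (SD, n = 3) was low, above 13.3% of tested genes.

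Among soluble and membrane regulators, Cr1l, the rodent membrane regulator Crry, had a log2 fold change of -0.12 (95% interval -1.54 to 1.30). C1qbp, a mostly mitochondrial protein that also binds C1q, had one of -0.01 (95% interval -0.72 to 0.69). The edgeR adjusted p was 0.99996 for both. Cd46, Cfi, Cd55b and Cd59b were among the 14 of 19 regulators with no count.

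Of the receptor list, C3ar1, the receptor for the C3a fragment, had no count in KO-labelled libraries and 0, 1 and 41 counts in WT libraries. The genes with ample counts bind complement among many other ligands. Calr, the chaperone calreticulin that can bind C1q, had 2008, 1533 and 2041 CPM in KO-labelled replicates 4, 5 and 6, against 3303, 3067 and 2699 CPM in WT replicates 4, 5 and 6. The groups did not overlap, and its log2 fold change of -0.70 ± 0.16 (SE) had an edgeR adjusted p of 0.0742, with 0.00103 in DESeq2, 0.00133 in limma-voom and up to 0.463 when a library was left out. Lrp1, a scavenger receptor, had a log2 fold change of -0.06 (95% interval -0.54 to 0.43; edgeR adjusted p = 0.99996).

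**Figure D3:**
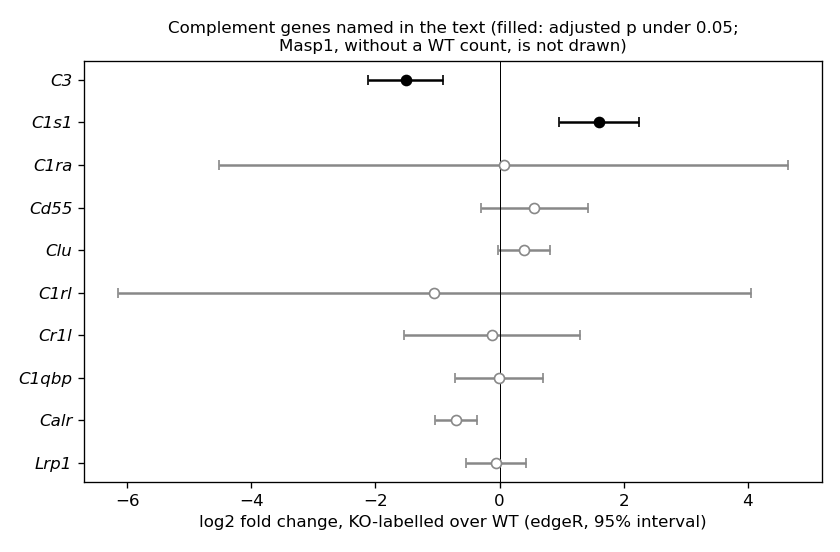
Log2 fold change of KO-labelled over WT libraries (x axis; point and 95% interval from edgeR) for the tested complement genes named in the text (y axis), filled where the adjusted p is under 0.05; Masp1, with no WT count, is not drawn. C3 lies at -1.51 and C1s1 at 1.60, and the intervals of C1ra, Cd55, Clu, C1rl, Cr1l, C1qbp and Lrp1 include 0.

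Cytokine receptors, JAK-STAT and NF-kB genes and C/EBP factors act in the induction of complement genes in many cells. A list of 30 genes of these pathways, which also holds inhibitors of them, was examined, and 25 were tested. Jak1, a kinase that carries interferon and interleukin-6 signals, was the 1 gene called and fell, where 0.402% of all tested genes were called. It had 171, 114 and 61.4 CPM in KO-labelled replicates 4, 5 and 6, against 365, 373 and 398 CPM in WT replicates 4, 5 and 6. Its log2 fold change was -1.72 ± 0.35 (SE; edgeR adjusted p = 0.0489), and it lies on chromosome 4 from 101152367 to 101265282. The call was lost with DESeq2 size factors, library totals or a stricter filter on low counts, and in 5 of 6 fits that left out 1 library, all but the one without KO-labelled replicate 4. Stat3, the main relay of interleukin-6, had a log2 fold change of 0.18 (95% interval -0.41 to 0.77), and Nfkb2 and the oncostatin M receptor Osmr had values of -0.20 and -0.02 (edgeR adjusted p = 0.99996 for each). Of the 25 genes, 11 had an estimate above 0 and 14 below it, with a median log2 fold change of -0.02. Inhibitors are among them, so these counts give no direction for the pathways. An unadjusted p under 0.05 in edgeR was found for 1 gene that was higher and 1 that was lower, as for 6.49% of all tested genes. Groups did not overlap for 1 higher and 1 lower gene, as for 14.9% of all tested genes. Il6 had no count.

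Other acute phase genes were mostly too low to be tested. Of 20 listed, 5 had no count and 2 were tested. Neither was called by edgeR, which called 0.402% of all tested genes. Cp, the copper carrier ceruloplasmin, had 319.5, 122 and 159 CPM in KO-labelled replicates 4, 5 and 6, against 462, 413 and 434 CPM in WT replicates 4, 5 and 6. The groups did not overlap (log2 fold change -1.12 ± 0.32, SE; edgeR adjusted p = 0.2900, DESeq2 0.0198, up to 0.727 when a library was left out). Hp, haptoglobin, had a log2 fold change of -0.15 (95% interval -2.32 to 2.02). Saa3, a strongly induced acute phase gene, had no count. C3 and Cp thus shared non-overlapping groups with lower KO-labelled values, a direction without overlap that 7.93% of all tested genes show.

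**Figure D4:**
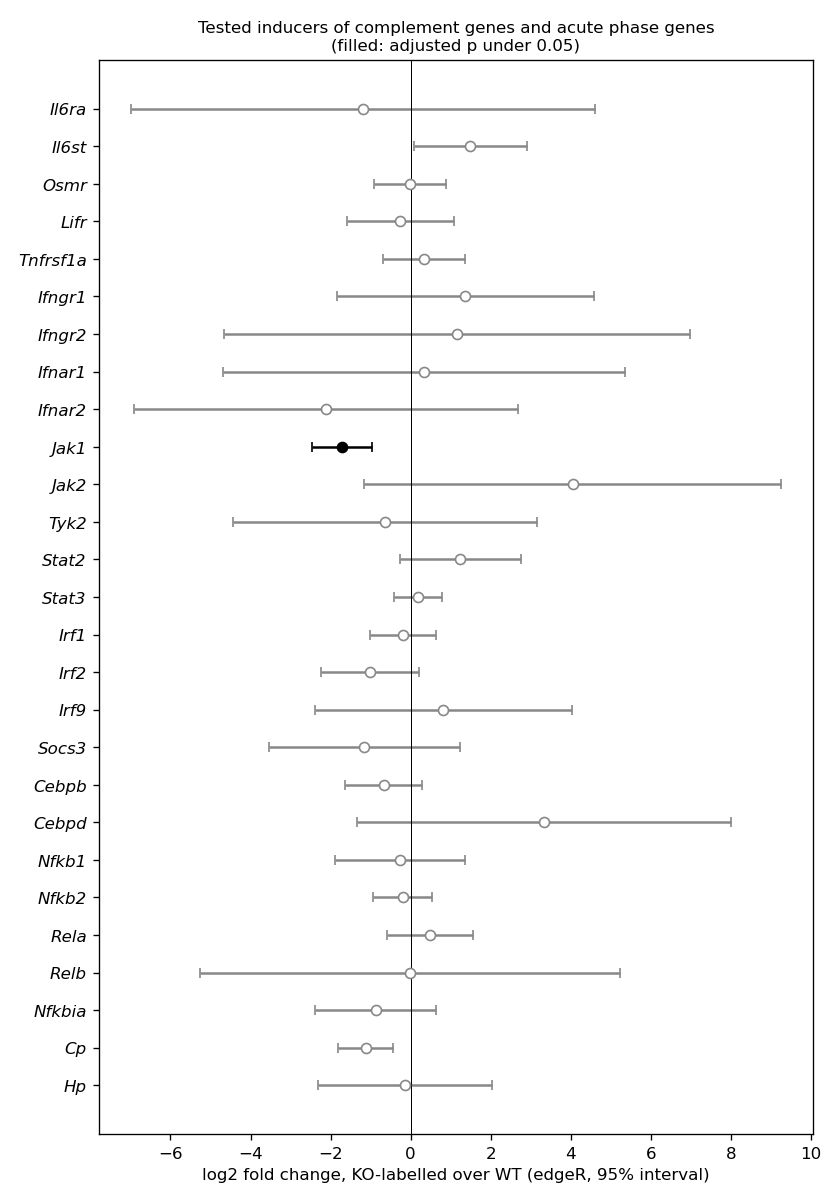
Log2 fold change of KO-labelled over WT libraries (x axis, point and 95% interval from edgeR), filled where the adjusted p is under 0.05. The y axis lists 25 tested genes of pathways that induce complement genes, inhibitors among them, and the 2 tested acute phase genes. Jak1 at -1.72 is the 1 filled point, and intervals of low genes span several log2 units.

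CD55 and CD59 are held on the cell surface by a glycosylphosphatidylinositol (GPI) anchor. Of 27 genes of anchor synthesis found in the table, 18 were tested and none was called by edgeR, DESeq2 or limma-voom. Nor had any an unadjusted p under 0.05 in edgeR. Over all tested genes the shares called were 0.402%, 2.88% and 0.524%, and 6.49% had such an unadjusted p. The lack of calls among 18 genes therefore says little about them. Their median log2 fold change was -0.57, with 13 estimates below 0 and 5 above, against -0.02 over all tested genes. Levels were not matched in this comparison. Many of the 18 genes had libraries at or near 0 and imprecise estimates in either direction. Piga had 0, 33 and 0 counts in KO-labelled libraries (log2 fold change -2.08 ± 2.48, SE). Pigq had 13, 0 and 0 counts in WT libraries (log2 fold change 3.29 ± 2.44, SE). Such genes enter the median, and a joint fall of the anchor genes was not tested. The median was -1.65 in limma-voom and -0.46 with library totals, with 14 and 11 estimates below 0. With 1 library left out it ran from -0.59 to -0.29, and was -0.29 without WT replicate 5 and -0.34 without WT replicate 4. With the replicate block it was -1.47. Among the most abundant, Gpaa1 and Pigk, subunits of the transamidase that attaches the anchor, had log2 fold changes of -0.52 (95% interval -1.72 to 0.68) and -0.33 (95% interval -1.53 to 0.88). Pigs, another subunit, had -0.09 (95% interval -1.33 to 1.16), and Pigt, also a subunit, 0.40 (95% interval -1.37 to 2.17).

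Genes near the 9 in the genome were examined within 200 kb on either side. No tested neighbour was called by edgeR other than C1s1 itself as the neighbour of C1ra, where 0.402% of all tested genes were called. Around C3, 5 genes were tested, and the nearest ones, Gpr108 and Trip10, had log2 fold changes of -1.04 ± 0.60 and 0.18 ± 0.54 (SE). Around C1s1, 6 were tested, and Pex5, a receptor of peroxisomal import 115 kb away, stood at 116 CPM in KO-labelled and 66.6 CPM in WT libraries (log2 fold change 0.80 ± 0.45, SE; edgeR adjusted p = 0.945). Around C4b, Tnxb, the matrix protein tenascin X, stood at 26.7 CPM in KO-labelled and 114 CPM in WT libraries (log2 fold change -2.09 ± 0.90, SE; edgeR adjusted p = 0.669).

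Over the 6 libraries, the genes of at least 50 CPM whose log2 CPM was most like that of C3 were Tm9sf2, Hist4h4 and Mtbp, with Pearson's r of 0.997, 0.984 and 0.980 among 3256 genes compared. For C1s1 they were Cyb5r1, H2-D1 and Lgals1, with r of 0.978, 0.976 and 0.972. These are the largest of many values over 6 libraries that share 2 groups, so the difference between the groups enters them. H2-D1, an MHC class I heavy chain, averaged 224 CPM in KO-labelled and 88.7 CPM in WT libraries, and Lgals1, the lectin galectin-1, 3649 and 2387 CPM, and neither was called (edgeR adjusted p = 0.192 and 0.0679).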

How the data were processed

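RNA was measured in 3 KO-labelled and 3 WT libraries. The authors deposited unnormalized read counts for each gene. Fastp, HISAT2 2.0.5, featureCounts 1.5.0-p3 and mm10 are named in the submitters' processing notes, and the annotation release and strand setting were not given in the sources. Poly(A) RNA was copied with random hexamers, per the labels' protocols. Symbols, coordinates and union exon lengths came from GENCODE M21 of the same build (53274 of 53465 genes matched).

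The test was edgeR 4.0.16 (R 4.3.3): filterByExpr (minimum count 10, 8200 genes), TMM, a robust quasi-likelihood fit with group as its term, two-sided, Benjamini-Hochberg over all tested genes, threshold 0.05. The fit was also run on simulated counts, with an outcome that is not reported here and is not used as support. Totals ran from 1687466 to 3126208, so that 1 count was worth 0.3102 to 0.608 CPM. Alternatives were DESeq2 1.42.0, limma-voom (limma 3.58.1), other scalings, filters, a threshold of 0.01, the replicate block and leaving out each library.

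The 9 genes and all lists were chosen with earlier results of these data known. Named genes were the 9, Nat10, called list genes, up to 4 per list by mean CPM, up to 3 tested neighbours within 200 kb, and the 3 genes most like C3 and C1s1; list genes named for having 0 or few counts and marker genes were chosen after their values were seen. Some list genes are counted but not reported here by name.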

Additional observations from a re-analysis of the deposited data

How the results depend on the processing

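C3 stayed lower and C1s1 higher, and Cd55 and Clu kept estimates above 0, under all 14 alternatives. Among these, the threshold of 0.01 reuses the main fit, so its estimates could not differ. The calls of C3 and C1s1 were lost at a threshold of 0.01. The count of called genes, 33, was 234 in DESeq2, 91 without a filter on low counts and 16 at that threshold, and ran from 6 to 29 with 1 library left out. For other complement genes the count of 0 became 2 in DESeq2, 1 in limma-voom and 1 without a filter, and was 0 in each fit with 1 library left out. For the genes of inducing pathways, acute phase genes and anchor genes the count of 1 became 2 in DESeq2 and without a filter. It was 0 with DESeq2 size factors, library totals, a stricter filter or the threshold of 0.01, and 0 to 1 with 1 library left out. Some log2 fold changes near 0 turned. C1ra was -0.25 in limma-voom, and ran from -0.37 to 0.65 with 1 library left out. Nat10 was 0.0195 in limma-voom and 0.0265 with library totals, and ran from -0.35 to 0.35. C1qbp was 0.00936 in DESeq2, 0.0095 with DESeq2 size factors and 0.0921 with library totals, and ran from -0.47 to 0.25. Lrp1 was 0.0546 with library totals and ran from -0.29 to 0.12. Cr1l ran from -0.62 to 0.47. The cause was not tested.

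The labels give no pairing of the samples by replicate number. Deviations from the group mean correlated at -0.057, -0.012 and 0.00048 over 3257 genes for same-numbered libraries. For libraries of different number the values ran from -0.033 to 0.046. Same-numbered libraries were thus no more alike, which does not settle whether they were paired. With the replicate block 38 genes were called, C3 and C1s1 among them. Totals of 1687466 to 3126208 counts limit the precision of low genes such as C1ra, whose interval spans several log2 units.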
